A study of Mus musculus with 2 samples.

Results

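The 9 complement and phagocytosis genes described here were followed across the cell types that carried the Atf3 reporter in the mouse cortex after mild traumatic brain injury (mTBI). They are 9 of the 31053 features in the count matrices and were taken as a list of names, with earlier results of these data known. 3 encode the chains of C1q (C1qa, C1qb and C1qc), 2 encode later complement components (C3 and C4b), 3 encode receptors of phagocytes (C3ar1, Itgam and Mertk), and Cd68 encodes a glycoprotein of phagocyte lysosomes. Mice carried 1 Atf3-CreER allele and 1 SUN-SfGFP allele (genotype Atf3-CreER:+/wt; SUN-SfGFP:+/wt), were over 7 weeks old, received mTBI and were given tamoxifen at 4 and 5 days post injury (dpi). Nuclei positive for GFP were sorted from the cortex on the injured side at 7 dpi and profiled by droplet-based single-nucleus RNA sequencing. The reporter marks any cell that expressed Atf3 while tamoxifen was present, glia included, so the nuclei are a selected fraction of each cell type. No uninjured or GFP-negative nuclei were analysed here, and none of the values below is an effect of injury.

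The 2 libraries were made from male and from female mice, with 4 animals pooled for each. The sex field for the female pool reads male, but its title and its counts (37890 UMIs of Xist, against 36 for the male pool) place it with females. Unique molecular identifiers (UMIs) count captured RNA molecules. The male library held 4003 labelled nuclei with a median of 1742 UMIs, and the female library 4168 with a median of 3710, so depth and sex cannot be told apart. 1 barcode occurred in both sets. With 2 pools, every SD and p-value below describes the spread between these libraries. The deposited labels gave 14 groups with at least 50 nuclei. Among non-neuronal labels these were Micro-PVM (microglia and perivascular macrophages, 1690 male and 2338 female nuclei), Astro (53 and 62), Oligo (26 and 42), VLMC (vascular leptomeningeal cells, 113 and 161) and SMC-Peri (smooth muscle cells and pericytes, 92 and 41). 9 labels were neuronal, 6 excitatory and 3 inhibitory. Levels are CPM (counts scaled to a fixed total of UMIs) of the summed nuclei of a label in a library, and they are compared between labels, not between genes, since they are not scaled to gene length. In summed nuclei, fewer nuclei that express a gene and less RNA per nucleus cannot be told apart.

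The classical complement pathway starts when C1q, assembled from its 3 chains, binds a target such as cell debris or a synapse. C1q then leads to cleavage of C4 and C3, whose fragments coat the target for uptake by phagocytes. In the brain C1q is made chiefly by microglia. Itgam encodes the alpha chain of complement receptor 3, which binds fragments of C3, and C3ar1 encodes the receptor for the C3a peptide. Mertk, a receptor tyrosine kinase, takes up dying cells through the bridging ligands Gas6 and Pros1, in microglia and in astrocytes.

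The labels were checked against marker genes. Astro nuclei held 14740 and 11971 CPM of 6 astrocyte markers, and Oligo nuclei 9874 and 7919 CPM of 5 oligodendrocyte markers, male library first here and in all pairs below. The 11 microglial markers summed to 4249 and 3490 CPM in Micro-PVM. Under the SMC-Peri label the pericyte markers Rgs5 and Kcnj8 were at 0 in both libraries, while Pdgfrb was at 27.2 and 43.3 CPM. Acta2, the smooth muscle gene among the markers, is not reported here, so whether the label matches its name was not settled. VLMC nuclei held 458 and 690 CPM of their own 5 markers and 1514 and 1529 CPM of astrocyte markers. Both are called by their labels only.

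On mouse build GRCm38 with the GENCODE vM21 annotation, the C1q genes lie side by side on the minus strand of chromosome 4, C1qb at 136880129-136886187, C1qc at 136889804-136893065 and C1qa at 136895917-136898803. C4b (chr17:34728380-34743882, minus strand) and C3 (chr17:57203970-57228136, minus strand) share a chromosome. C3ar1 lies at chr6:122847138-122856161 and Cd68 at chr11:69664213-69666153, both on the minus strand, while Itgam (chr7:128062640-128118491) and Mertk (chr2:128698956-128802894) are on the plus strand. Intronic reads were counted, and exons cover 4.17% of Mertk, against 64.8% of Cd68. C4b has a near-identical copy, C4a, that is not among the genes counted, so its UMIs may include reads from that copy. Itgam overlaps a second protein-coding gene model on its own strand, Gm49368, and its counts are uncertain to that extent.

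RefSeq promoter sequences (GRCm38.p6) were at hand for 7 of the 9 genes. They are shown for 2 C1q genes, which were high in microglia, and for Mertk, which was high in microglia and in astrocytes. C1qa and C4b had no entry. The 250 bases before each start were searched on both strands for AGGAAGT, a core bound by ETS factors such as PU.1 of myeloid cells, and for TTCNNNGAA, the GAS element of STAT factors. Only bases upstream of both the RefSeq and the GENCODE start are printed, and capitals mark the first motif, which appears as its reverse complement. The strand is minus for C1qb (chr4:136886201-136886450) and C1qc (chr4:136893066-136893164) and plus for Mertk (chr2:128698665-128698914).
C1qb: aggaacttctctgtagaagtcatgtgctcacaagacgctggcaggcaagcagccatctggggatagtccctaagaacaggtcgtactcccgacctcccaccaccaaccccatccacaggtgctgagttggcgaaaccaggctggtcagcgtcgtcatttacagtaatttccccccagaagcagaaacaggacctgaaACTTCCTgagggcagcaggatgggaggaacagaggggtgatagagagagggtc
C1qc: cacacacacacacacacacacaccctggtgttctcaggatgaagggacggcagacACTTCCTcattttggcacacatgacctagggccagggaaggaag
Mertk: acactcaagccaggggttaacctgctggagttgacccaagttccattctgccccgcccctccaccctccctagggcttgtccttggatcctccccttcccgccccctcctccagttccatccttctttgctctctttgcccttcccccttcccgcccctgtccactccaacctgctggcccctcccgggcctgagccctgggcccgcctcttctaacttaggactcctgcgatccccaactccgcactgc
AGGAAGT occurred once before C1qb and once before C1qc, and in none of the other 5 windows. Of all 32851 promoters, 7.69% held it. TTCNNNGAA was in none of the 7 windows and in 7.02% of all promoters. These are matches of letters and not measured binding sites.

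The C1q genes were microglial. C1qa stood at 141 and 79.5 CPM in Micro-PVM, C1qb at 312 and 186 CPM, and C1qc at 109 and 84.1 CPM. Over all neuronal labels, C1qb was at 10.7 and 5.07 CPM, C1qa at 5.20 and 1.45 CPM and C1qc at 3.02 and 1.45 CPM. All 3 were thus far higher in microglia in both libraries. Of all C1qb UMIs in the 14 labels, 91.4% and 95.9% came from Micro-PVM. At least 1 UMI of C1qb was found in 34.0% and 42.9% of microglia, and in 1.89% and 3.23% of Astro nuclei, which are not known as a source of C1q. The median depth was 1298.5 and 3012.5 UMIs in microglia and 2637 and 5286 UMIs in Astro. The shallower male library had the higher level and the lower share of nuclei. After thinning nuclei to 1000 UMIs the shares in microglia were 24.6% and 16.97%, so the male library was then the higher one. Nuclei with fewer UMIs than the target were left out, here and for all thinned shares below. Within single nuclei the chains were sparse: 49.6% and 37.9% of microglia had no UMI of any C1q chain and 1.30% and 3.81% had UMIs of all 3.

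The fit of the summed counts over all 28 sums (quasi-likelihood test of edgeR, adjusted by Benjamini-Hochberg over 10336 genes) gave the test of each difference. C3 and Cd68 did not pass its filter on low counts. The authors assigned each label from the RNA profile of the nucleus, by mapping it to a reference atlas. Genes tested here may thus have helped to place a nucleus under its label. The p-values between labels, here and below, therefore describe groups that were not chosen independently of the genes tested. Where a neuronal label had 0 UMIs in both libraries, the fitted fold is not stable, and the fold quoted comes from a fit in which the neuronal labels of a library were summed into 1 excitatory and 1 inhibitory group, a choice made after seeing the data. Between microglia and neurons, 7 of the 7 genes tested were higher in microglia, where 33.9% of all genes tested were called higher and 60.3% were called in either direction. Most UMIs of the C1q genes, C3ar1 and Itgam lay in Micro-PVM, and it was through that label that these genes could pass the filter, so the count of 7 is a description and supports nothing about the 9 genes as a set. C1qa rose by 5.24 ± 0.36 on the log2 scale (SE, edgeR adjusted p = 1.36e-12) and C1qc by 5.29 ± 0.38 (edgeR adjusted p = 2.13e-12). C1qb, with no UMI in Vip neurons, differed by 4.96 ± 0.31 with the neuronal labels summed (edgeR adjusted p = 1.12e-09, with 56.0% of genes called in that fit).

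**Figure D1:**
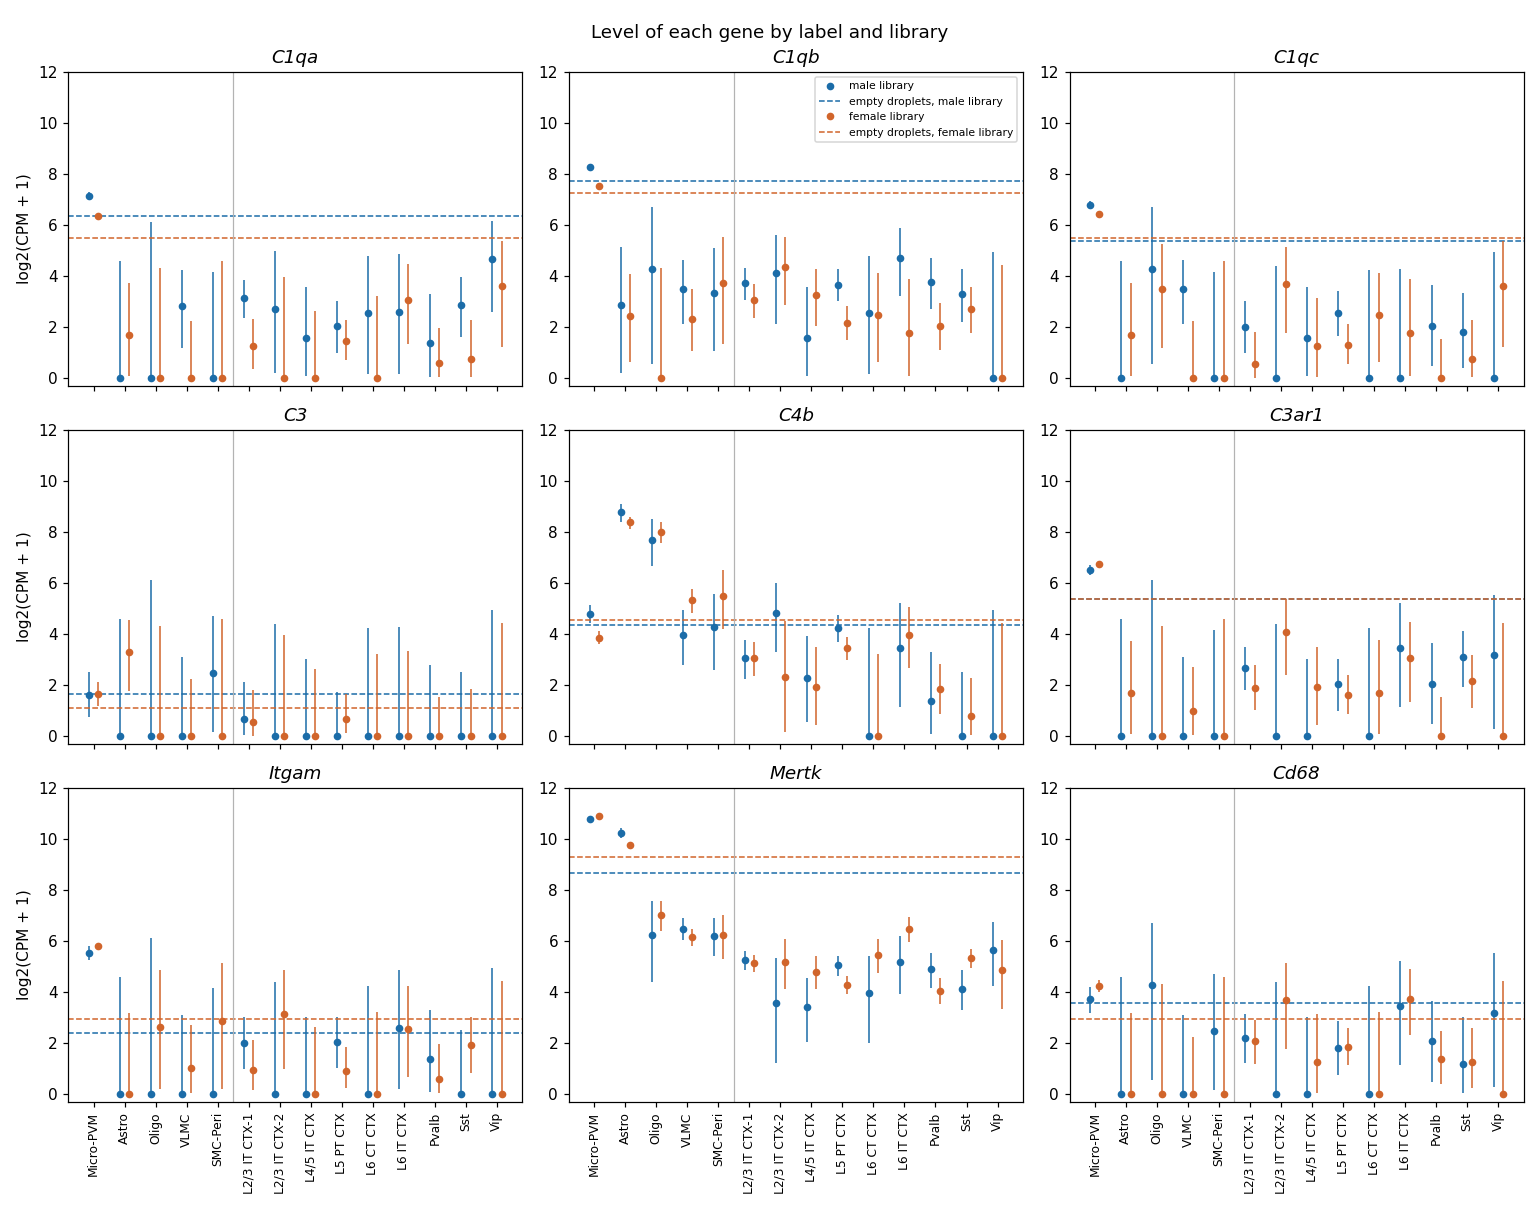
Level of each of the 9 genes, as log2(CPM + 1), by label (x axis) in the male and the female library, with bars for the exact 95% Poisson interval (counting error only) and dashed lines at the level in empty droplets. The C1q genes, C3ar1 and Itgam are high in Micro-PVM alone, Mertk in Micro-PVM and Astro, and C4b in Astro and Oligo.

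Droplets without a nucleus gave the background. Empty droplets (1 to 50 UMIs) held C1qb at 210 and 153 CPM and Mertk at 406 and 615 CPM, so RNA of both genes was present in droplets with no called nucleus. In microglia, 6 of the 9 genes were above their share in empty droplets in both libraries, with intervals of the ratio above 1. They were the 3 C1q chains, C3ar1, Itgam and Mertk. The margin was small for C1qb, at 1.49-fold (95% interval 1.21 to 1.86) and 1.21-fold (1.02 to 1.46). It was widest for Itgam, at 10.6-fold (2.87 to 88.6) and 8.14-fold (3.71 to 22.3). In the neuronal labels 0 of the 9 genes were above empty droplets and 5 were below in both libraries, C1qa, C1qb, C1qc, C3ar1 and Mertk. The neuronal level was 0.0513 and 0.0332 times that in empty droplets for C1qb and 0.0690 and 0.0461 times for Mertk, but 0.445 and 0.264 times for C4b and 0.251 and 0.406 times for Cd68. Against microglia, neurons held 3.44% and 2.73% of the level of C1qb and 1.58% and 1.49% of that of Mertk, beside 2.20% and 1.89% for the 11 microglial markers. The percentages were far larger for C4b (32.3% and 43.8%) and Cd68 (22.3% and 15.4%). How much of the neuronal UMIs came from free RNA was not tested.

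C3 was hardly detected. Micro-PVM held 5 UMIs (2.01 CPM) and 17 UMIs (2.11 CPM), and the empty droplets 1 UMI in each library. The Astro label held 0 and 4 UMIs, the latter all in 1 nucleus. The neuronal labels together held 1 and 3 UMIs. C3 is the component on which the complement pathways converge, and at this depth no label was above the level of empty droplets in both libraries. It did not pass the filter on low counts, and no fold is given for it.

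C4b, whose product is cleaved by the C1 complex, was a gene of astrocytes and oligodendrocytes here. In Astro nuclei it stood at 433 CPM (95% Poisson interval 338 to 547) and 330 CPM (279 to 387), from 70 and 151 UMIs. In Oligo nuclei it was at 203 and 254 CPM, from 11 and 50 UMIs. Micro-PVM held 26.5 and 13.4 CPM, VLMC 14.4 and 38.8 CPM and SMC-Peri 18.1 and 43.3 CPM. Both libraries thus put Astro and Oligo above all other labels, and by mean level the order was Astro (381 ± 73.2 CPM, SD, n = 2), Oligo (229 ± 35.9), SMC-Peri (30.7 ± 17.8), VLMC (26.6 ± 17.3) and Micro-PVM (19.9 ± 9.22). The last 3 of these overlapped one another, whereas Astro and Oligo did not overlap them. At least 1 UMI of C4b was found in 52.8% and 69.4% of Astro nuclei, and in 3.20% and 3.64% of microglia. After thinning to 1000 UMIs the Astro shares were 32.7% and 30.6%.

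Against neurons, with the neuronal labels summed, C4b was higher in astrocytes by 6.40 ± 0.38 on the log2 scale (SE, edgeR adjusted p = 1.76e-09) and in oligodendrocytes by 5.72 ± 0.46 (edgeR adjusted p = 1.55e-07). The background in that fit was 32.3% of genes called for astrocytes and 21.8% for oligodendrocytes. C4b and Mertk were the 2 genes of 7 tested that passed in astrocytes in the fit of all labels, where 20.8% of all genes were called higher and 35.3% in either direction. The same 2 passed in oligodendrocytes, where 12.4% were called higher and 23.1% in either direction. In both cell types C4b was above empty droplets, at 22.5-fold and 14.8-fold in Astro and 10.6-fold and 11.4-fold in Oligo. Microglia held less C4b than astrocytes, by a log2 fold change of -4.29 ± 0.41 (edgeR adjusted p = 4.37e-09), with 18.3% of genes called lower in microglia. Against neurons C4b was higher in microglia by 2.21 ± 0.41 with the neuronal labels summed (edgeR adjusted p = 0.000192), but at 1.38-fold and 0.602-fold of empty droplets it was not above empty droplets there in both libraries.

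C4b also passed for VLMC (2.59 ± 0.48, edgeR adjusted p = 0.000251, 45.9% of genes called) and SMC-Peri (2.61 ± 0.73, edgeR adjusted p = 0.0107, 34.4% called) against neurons, again with neuronal labels summed. Neither label was above empty droplets in both libraries, and the ratio in VLMC was 0.747 and 1.74. Astrocyte markers in VLMC stood at 10.3% and 12.8% of their level in Astro, beside 3.32% and 11.8% for C4b. In SMC-Peri the astrocyte markers were at 5.23% and 5.99%, beside 4.19% and 13.1% for C4b. Whether astrocyte RNA plays a part in these levels was not tested.

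**Figure D2:**
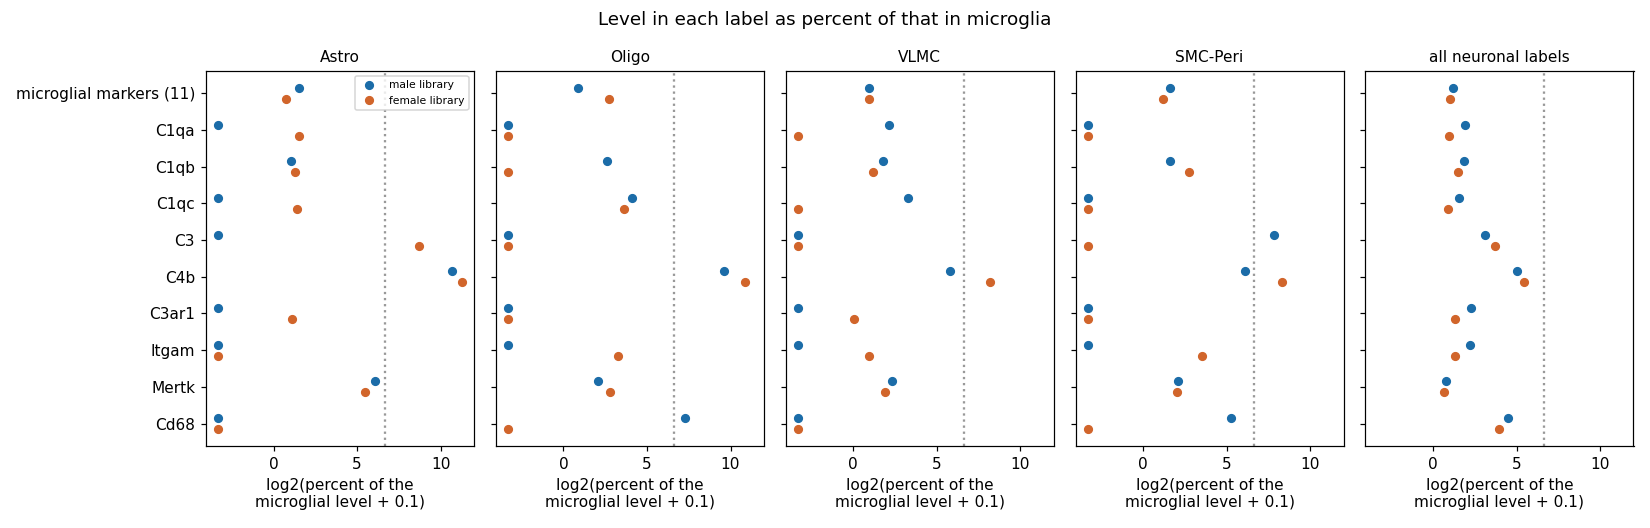
Level of the 9 genes and of 11 microglial markers under 4 non-neuronal labels and in all neuronal labels, as log2 of the percent of the level in Micro-PVM plus 0.1, with 1 point per library and the dotted line at 100%. C4b lies above the line in Astro and Oligo in both libraries, Mertk is at 67.2% and 45.1% in Astro, and points at the left edge are genes with no UMI. Points of C3 and Cd68 rest on few UMIs.

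Among neurons C4b was carried by excitatory labels. The 6 excitatory labels together held 50 and 59 UMIs (11.4 and 7.88 CPM), and the 3 inhibitory labels 1 and 6 UMIs (0.644 and 1.69 CPM). L5 PT neurons (layer 5 pyramidal tract) had 17.8 and 9.83 CPM, L6 IT neurons 10.0 and 14.6 CPM, and the larger L2/3 IT label 7.22 and 7.26 CPM. The smaller L2/3 IT label was the highest neuronal label in the male library at 27.3 CPM but stood at 3.90 CPM in the female library, from 5 and 1 UMIs, so the order of the excitatory labels differed between the libraries. L6 CT and Vip neurons had no UMI in either library. The sum of the excitatory labels was higher than that of the inhibitory labels in both libraries, but this did not hold label by label. L6 CT, an excitatory label, was below the inhibitory Pvalb label (1.58 and 2.58 CPM) in both libraries. With the labels summed, C4b was lower in inhibitory neurons by a log2 fold change of -2.67 ± 0.63 (SE, edgeR adjusted p = 0.0127, with 7.47% of genes called in that fit). In the fit of all labels it was not called, where 17.5% of genes were, and no SE could be estimated for it there with L6 CT and Vip at 0 in both libraries. The other 6 genes were not called in either fit. C4b was not above empty droplets (19.2 and 22.3 CPM) in either group. It stood at 0.590 and 0.353 times their level in excitatory and at 0.0335 and 0.0757 times in inhibitory neurons. The part of free RNA in these values was not tested.

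Astrocyte markers moved with this difference. They summed to 147 and 124 CPM in excitatory and 31.5 and 32.9 CPM in inhibitory neurons. When neuronal nuclei with 2 or more UMIs of astrocyte or oligodendrocyte markers were left out, C4b stood at 13.2 and 8.75 CPM in excitatory and 0.713 and 1.40 CPM in inhibitory neurons, from 42 and 35 UMIs against 1 and 4. The inhibitory values thus rest on few UMIs, and the part of astrocyte RNA in the difference was not tested. Astrocyte markers in the nuclei kept were at 51.8 and 41.3 CPM in excitatory and 22.1 and 19.5 CPM in inhibitory neurons. In L5 PT neurons, C4b was at 19.8 and 11.2 CPM in the nuclei kept.

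L5 PT neurons were also compared with the L2/3 IT labels, since the study asks why marked neurons of layer 5 die after mTBI while those of upper layers survive. Of the 7 genes tested, 0 were called between them, where 8.08% of all genes were, with 1924 genes at an unadjusted p under 0.05. With the replicate block (the library as a term) and with DESeq2 the number called among the 7 was also 0. The log2 fold changes had SE values of 0.45 for Mertk, 0.50 for C4b and 0.55 for C1qb and up to 1.12 for C1qa. With such SE values even sizeable differences could go uncalled at this depth, so the count of 0 does not show equal levels. C4b had the value 0.52 ± 0.50 (edgeR adjusted p = 0.665) and Mertk -0.16 ± 0.45 (edgeR adjusted p = 0.918).

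C3ar1, the receptor of the C3a peptide, was microglial. It stood at 90.2 and 107 CPM in Micro-PVM and at 4.20 and 2.54 CPM in neurons. Astro held 0 and 1 UMI, Oligo and SMC-Peri none, and VLMC 0 and 1 UMI. The level in microglia exceeded that in neurons by 4.94 ± 0.32 on the log2 scale (SE, edgeR adjusted p = 5.51e-13). The share of microglia with a UMI was 11.5% and 25.8%, and after thinning to 1000 UMIs 7.92% and 9.65%.

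Itgam, the alpha chain of complement receptor 3, followed the same order. Micro-PVM held 45.3 and 54.5 CPM, from 113 and 438 UMIs. Neurons held 2.01 and 1.27 CPM. With the neuronal labels summed, microglia were higher by 4.94 ± 0.37 on the log2 scale (SE, edgeR adjusted p = 2.01e-08). Astro nuclei had no Itgam UMI in either library. With a floor of 3 counts per library, microglia were at least 2.44-fold higher in the male and at least 8.32-fold higher in the female library.

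Mertk was shared by microglia and astrocytes. It stood at 1776 and 1897 CPM in Micro-PVM and at 1194 and 856 CPM in Astro, far above Oligo (74.0 and 127 CPM), VLMC (88.3 and 69.7 CPM), SMC-Peri (72.5 and 74.1 CPM) and neurons (28.0 and 28.4 CPM). The means were 1837 ± 85.0 CPM in Micro-PVM and 1025 ± 239 CPM in Astro (SD, n = 2). Microglia were higher in both libraries, and the ranges did not overlap. In the fit of all labels the difference was 0.89 ± 0.35 on the log2 scale and just missed the threshold (edgeR adjusted p = 0.0515). With the replicate block it passed (edgeR adjusted p = 0.0116). It passed in 7 of 8 alternatives, with DESeq2 the exception (DESeq2 adjusted p = 0.185). In either cell type Mertk was higher than in neurons, by 5.92 ± 0.21 in microglia (edgeR adjusted p = 3.80e-19) and 5.04 ± 0.23 in astrocytes (edgeR adjusted p = 2.98e-16).

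A UMI of Mertk was found in 83.1% and 94.9% of microglia and in 86.8% and 91.9% of Astro nuclei. Thinned to 1000 UMIs, the shares were 75.8% and 79.9% in microglia and 71.2% and 51.6% in Astro. Both cell types were above empty droplets, at 4.37-fold and 3.08-fold in microglia and 2.94-fold and 1.39-fold in Astro. The 11 microglial markers were at 2.77% and 1.56% of their microglial level in Astro, against 67.2% and 45.1% for Mertk.

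Oligo (1.87 ± 0.48, edgeR adjusted p = 0.00387) and VLMC (1.15 ± 0.32, edgeR adjusted p = 0.00363) also exceeded neurons in Mertk. In VLMC, 2 of the 7 genes tested (C4b and Mertk) were called higher, where 31.6% of all genes were called higher and 51.7% in either direction. SMC-Peri did not pass (1.03 ± 0.46, edgeR adjusted p = 0.0829), and C4b was the 1 gene of 7 called there, where 21.3% of all genes were called higher and 36.7% in either direction. Mertk was under the level of empty droplets in all 3 labels. The Oligo level was 4.16% and 6.70% of that in microglia, and the microglial markers there were at 1.74% and 6.55%. In VLMC the Mertk level was 7.40% and 8.14% of that in Astro, beside 10.3% and 12.8% for the astrocyte markers. The part of microglial or astrocyte RNA in these levels was not tested.

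Cd68, a lysosomal glycoprotein of phagocytes, gave few UMIs. Micro-PVM held 30 UMIs (12.03 CPM) and 142 UMIs (17.7 CPM), neurons 2.69 and 2.72 CPM, and Astro none. The empty droplets held 10.7 and 6.69 CPM, so microglia were above them in the female library only. With the neuronal labels summed, where Cd68 passed the filter, microglia exceeded neurons by 2.52 ± 0.46 on the log2 scale (SE, edgeR adjusted p = 0.000247).

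**Figure D3:**
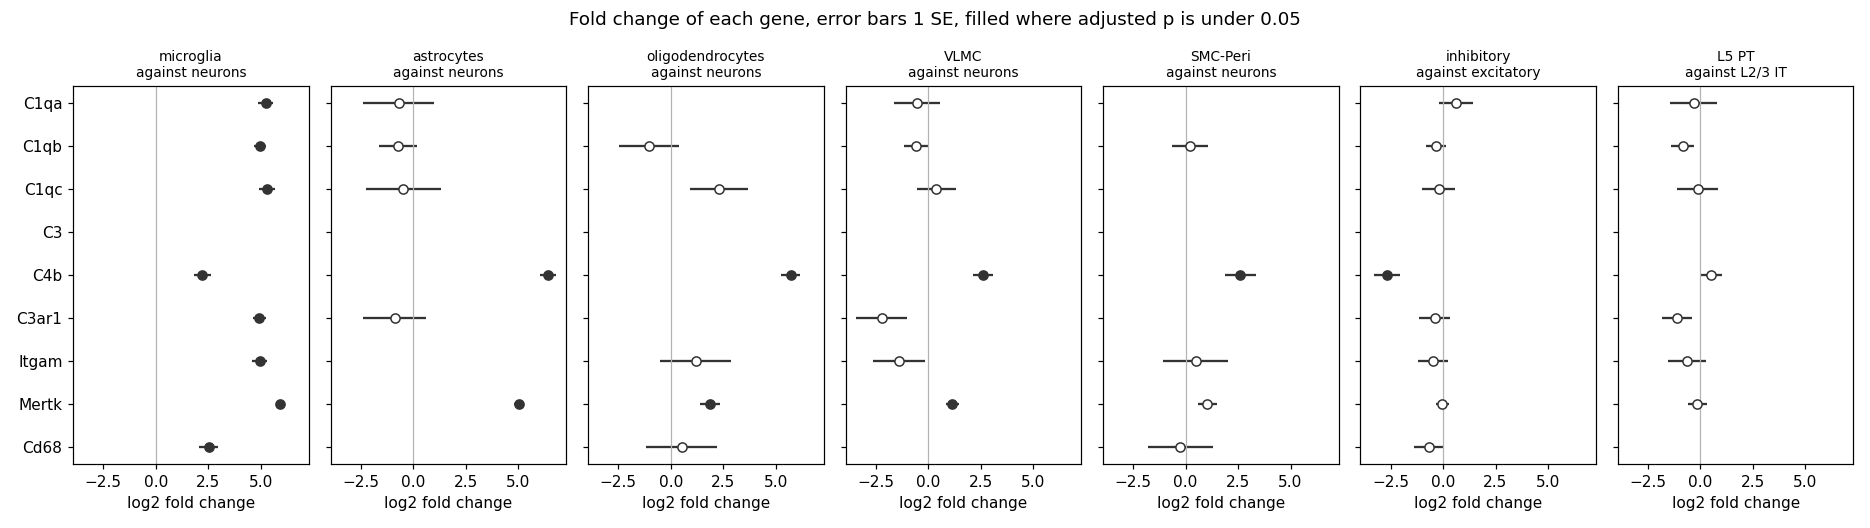
Log2 fold change (x axis) of each gene in 7 comparisons, with bars of 1 SE and filled points where the edgeR adjusted p is under 0.05. All 8 genes with a value are higher in microglia than in neurons, C4b is higher in all 5 non-neuronal labels than in neurons and lower in inhibitory than in excitatory neurons, and no point is filled for L5 PT against L2/3 IT. Folds come from the fit of all labels, or from the fit with neuronal labels summed where a neuronal label was at 0 or the gene did not pass the first filter, and are left out where the label itself was at 0 or the gene was not tested.

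Microglia and astrocytes were also compared directly. Microglia were higher in 5 of the 7 genes tested, where 16.9% of all genes were called higher and 35.2% in either direction, and lower in C4b alone. The same limit of the filter holds for this count. C1qa, C1qc and C3ar1 each had 1 UMI in the Astro nuclei of both libraries together, and C1qb had 3. The ratio of C1qb in microglia to that in Astro was 44.5 (exact 95% interval 15.2 to 216, counting error only), and its difference passed the test (edgeR adjusted p = 2.01e-07). For C1qa the ratio was 58.3 (10.4 to 2305), with an edgeR adjusted p of 2.50e-05.

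The deposited clusters divide the Micro-PVM nuclei further, and 6 clusters had at least 50 such nuclei in each library. The values are a description, since these genes were among those clustered. C3ar1 ran from 56.2 and 56.5 CPM in cluster 0 to 120 and 144 CPM in cluster 1 and 177 and 104 CPM in cluster 9. Cluster 0 was the lowest in both libraries. Itgam was at 54.7 and 77.9 CPM in cluster 0, at 72.6 and 76.3 CPM in cluster 5, and lowest in cluster 2, at 7.23 and 24.1 CPM. C4b was highest in clusters 2 (65.1 and 20.7 CPM) and 10 (64.4 and 44.3 CPM). The cluster 2 values rest on few UMIs, 1 and 14 for Itgam and 9 and 12 for C4b. Only 135 of 338 and 290 of 417 nuclei of cluster 2 were Micro-PVM. These held the highest level of neuron markers among the 6 clusters, at 839 and 669 CPM. Mertk was lowest in cluster 9 (1155 and 1311 CPM) and highest in cluster 5 (2075 and 2367 CPM). C1qc stayed between 79.9 and 123 CPM in all 12 sums, and C1qa and C1qb were higher in the male library in every cluster. Border macrophage markers were highest in cluster 1, at 54.0 and 162 CPM, and Cd68 stood there at 12.5 and 26.9 CPM. That cluster was the highest for Cd68 in the female library only. In the male library cluster 9 was at 21.3 CPM, and no cluster held more than 9 UMIs of Cd68.

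**Figure D4:**
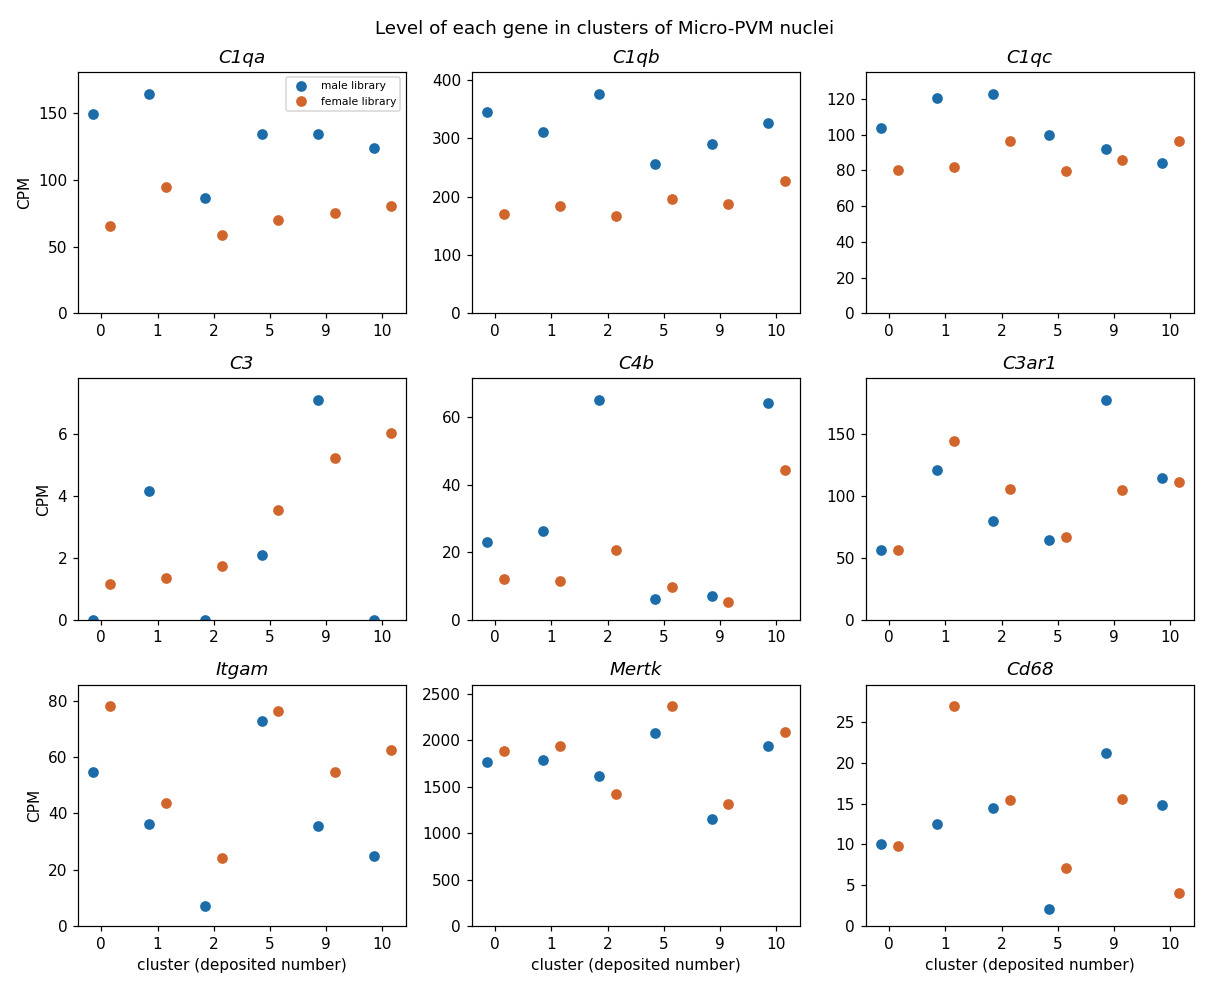
Level of each gene in CPM (y axis, own scale per gene) in the 6 clusters of Micro-PVM nuclei with at least 50 nuclei in each library, with 1 point per library. C3ar1 is lowest in cluster 0, Itgam in cluster 2 (from 1 and 14 UMIs) and Mertk in cluster 9 in both libraries. C1qa and C1qb are higher in the male library in every cluster.

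The rest of the pathway was read from 3 lists. Of 48 other complement genes and regulators in the files, 19 were tested. In microglia 7 of the 19 were higher and 8 lower than in neurons, where 33.9% of all genes were called higher and 60.3% in either direction. Itgb2, the beta chain that pairs with Itgam, was at 53.3 and 50.2 CPM in microglia and higher than in neurons by 5.84 ± 0.46 on the log2 scale (edgeR adjusted p = 6.96e-11). Csmd1, a membrane complement regulator of neurons, was lower in microglia by a log2 fold change of -3.04 ± 0.37. In astrocytes 3 of the 19 were higher and 6 lower than in neurons, where 20.8% of all genes were called higher and 35.3% in either direction. Clu, encoding clusterin, was higher in astrocytes by 3.39 ± 0.33. Between L5 PT and L2/3 IT neurons 1 of the 19 was higher (Sez6l) and 1 lower (Csmd3), where 8.08% of all genes were called.

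Of 48 receptors, bridging ligands and engulfment genes in the files, 42 were tested. In microglia 32 of the 42 were higher than in neurons and 6 lower, beside the 33.9% and 60.3% over all genes, with a median log2 fold change of 3.34 against 0.19 over all genes. Genes high in microglia alone could pass the filter through that label here too. Fcgr1, an Fc receptor, stood at 96.6 and 80.1 CPM in microglia, and Tyrobp, the adaptor of Trem2, at 69.0 and 45.9 CPM. In astrocytes 13 of the 42 were higher and 2 lower, beside 20.8% of all genes called higher and 35.3% in either direction. Megf10, an engulfment receptor of astrocytes, was at 192 and 138 CPM there and at 0.401 and 1.74 CPM in microglia. It was also high under the Oligo label, at 296 and 142 CPM. Between L5 PT and L2/3 IT neurons 2 of the 42 were higher and 2 lower, where 8.08% of all genes were called in either direction. Gas6, a ligand of Mertk, was higher in L5 PT than in L2/3 IT neurons by 1.08 ± 0.26 on the log2 scale (edgeR adjusted p = 0.00892), and L5 PT neurons held 205 and 261 CPM. Syk, a kinase downstream of phagocytic receptors, was higher in L5 PT neurons by 1.32 ± 0.24 (edgeR adjusted p = 0.000495). The engulfment genes Dock1 (-2.24 ± 0.35) and Elmo1 (-1.06 ± 0.32) were lower there.

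Of 22 signals that promote or restrain engulfment, 18 were tested. Microglia were higher than neurons in 11 of the 18 and lower in 5, again beside 33.9% of all genes called higher and 60.3% in either direction. Cx3cr1, the receptor of fractalkine, was at 565 and 389 CPM in microglia, and Cd22 at 27.3 and 37.6 CPM. Cd200, a neuronal ligand that restrains microglia, was at 80.2 and 63.0 CPM in L5 PT neurons and at 8.82 and 3.36 CPM in microglia. In inhibitory against excitatory neurons 2 of the 18 were higher and 2 lower, where 17.5% of all genes were called in either direction. The fractalkine gene Cx3cl1 was lower in inhibitory than in excitatory neurons by a log2 fold change of -0.71 ± 0.22.

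Genes whose levels ran most like those of a member were sought over the 28 sums, as a description. The points share libraries and depth. C1qb was most like Arrb2 (Pearson r = 0.90 on log2(CPM + 1)), C4b most like Hepacam, a gene of astrocytes (r = 0.90), and Mertk most like Abca1, a lipid exporter (r = 0.91). Itgam was most like Naip5 (r = 0.85), and Cd68 most like P2ry6 (r = 0.82). Of the 36 pairs of members, C3ar1 with Itgam had the highest correlation (r = 0.75), and C4b with C1qa the lowest (r = -0.21).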

How the data were processed

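Nuclei of 2 libraries were profiled by 10X 3′ single-nucleus RNA sequencing. The deposited matrices hold UMI counts per gene and barcode, made by the authors with Cell Ranger (3.1.0 per the submitters' notes, 7.0.1 and 7.0.0 per the file headers) on mm10. Cell labels, clusters and the percent of mitochondrial counts come from the authors' deposited Seurat metadata. A deposited corrected matrix was not used: its totals equalled the corrected totals for 8171 nuclei and the UMI totals for 20.

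Counts were summed per library and label with at least 50 nuclei, and CPM, exact 95% Poisson intervals and exact 95% Clopper-Pearson intervals of shares were computed, which cover counting error only. Nuclei without a used label were left out, and no doublet caller was run. Depth was 11007313 UMIs in the male and 23202158 UMIs in the female library. Empty droplets were barcodes with 1 to 50 UMIs in the unfiltered matrices (404572 and 666640).

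Tests used edgeR 4.0.16 (quasi-likelihood, TMM scaling, filterByExpr, Benjamini-Hochberg adjustment, threshold 0.05) in R 4.3.3, checked on simulated data, with DESeq2 1.42.0 as an alternative. The nuclei of a library come from 1 pool, which pairs its sums: over 91 pairs of labels the deviations correlated with a median r of 0.12 (-0.05 to 0.41). Pathway genes named were those with the largest called changes in each direction. The genes and lists were chosen with earlier results of these data known. Some genes of the marker and pathway lists are not reported here. Promoters came from RefSeq (GRCm38.p6). Python 3.11.15 was used for the other steps.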

Additional observations from a re-analysis of the deposited data

Results flagged for a closer look

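Outside the comparisons, the nuclei that carry a neuronal label but are not in the authors' neuron subset (421 male and 152 female nuclei) held both Itgam and Mertk above the level in empty droplets in both libraries. Mertk stood at 973 and 903 CPM (mean 938 CPM), which was 2.40-fold and 1.47-fold the level in empty droplets. Itgam was at 36.3 and 38.5 CPM (mean 37.4 CPM), from 12 and 7 UMIs, at 8.48-fold and 5.76-fold. The means in Micro-PVM were 1837 CPM for Mertk and 49.9 CPM for Itgam. Other microglial genes were present too: C1qa at 69.5 and 55.0 CPM, C1qb at 263 and 93.6 CPM, and C1qc and C3ar1 each at 60.4 and 60.6 CPM. Their means in Micro-PVM were 110, 249, 96.6 and 98.5 CPM. They were not above empty droplets in both libraries. Most of these nuclei (372 and 134) carried the L6 IT label, with a median depth of 677 and 906 UMIs, and the cause was not tested.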

How the results depend on the processing

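Of the fold changes with a main and an alternative setting, 0 reversed in direction where the gene was called in either. Changes of sign without a call were not counted. Genes with 0 UMIs in a compared label in both libraries were left out of this check. The number of the 9 genes called between inhibitory and excitatory neurons was 0, and 1 with DESeq2 and 1 with the neuronal labels summed, C4b in each case. For SMC-Peri against neurons it was 1, and 2 with DESeq2, with library size alone, with the limits of the study's methods, without nuclei with UMIs of the 11 microglial markers, without neuronal nuclei with astrocyte or oligodendrocyte marker UMIs, and with the neuronal labels summed. The last 3 settings were chosen after seeing the data. With no filter on low counts C3 was called higher than in neurons in microglia (edgeR adjusted p = 0.00293) and in astrocytes (0.0111), with 7 neuronal labels at 0 UMIs. The replicate block gave Mertk an edgeR adjusted p of 0.0116 between microglia and astrocytes, against 0.0515 without it, and 1226 genes called between L5 PT and L2/3 IT neurons, against 835. It changed no other call of the 9 genes. Thinning nuclei to 1000 and 500 UMIs lowered the mean share with C1qb in microglia from 38.4% to 20.8% and 12.3%, with Mertk in microglia from 89.0% to 77.9% and 56.0%, with Mertk in Astro from 89.4% to 61.4% and 37.7%, and with C4b in Astro from 61.1% to 31.7% and 20.5%. The thinned shares rest only on nuclei with at least the target number of UMIs. With 2 libraries, leaving out either one leaves values and no test. The planned exclusion of nuclei with microglial marker UMIs from the longer marker list was not run for the comparisons, because it left no L6 CT nuclei in the female library. Few UMIs were counted for C3 and Cd68, and neither passed the filter in the fit of all labels.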
